A study of Rattus norvegicus with 192 samples.

Results

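The genes described here encode enzymes that oxidise or reduce alcohols and aldehydes or conjugate reactive compounds to glutathione, measured in the brain of adult rats whose mothers had been given an ethanol, a pairfed or a control diet. They were chosen by name: every gene of the array annotation whose symbol begins with Adh, Aldh or Akr and a digit, or with Gst and the letter of a cytosolic or mitochondrial class, together with Cat and Cyp2e1. This gave 56 genes of the 13336 named genes on the array. They comprise 4 alcohol dehydrogenases (ADH), 13 aldehyde dehydrogenases (ALDH), 17 aldo-keto reductases (AKR), 20 glutathione S-transferases (GST), catalase and cytochrome P450 2E1. Each gene is represented by its probe with the highest mean signal.

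Ethanol is oxidised to acetaldehyde by alcohol dehydrogenases, by cytochrome P450 2E1 and, with hydrogen peroxide, by catalase, the route known to matter most in brain. Aldehyde dehydrogenases then oxidise acetaldehyde and other aldehydes to acids, and some of them make retinoic acid or break down products of the transmitter GABA. Aldo-keto reductases reduce aldehydes, sugars and steroids, and glutathione S-transferases couple electrophiles, among them products of lipid peroxidation, to glutathione. Adh5, Adh7 and Aldh2, other well known ethanol enzymes, are not analysed here.

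All animals were female Sprague Dawley rats. In the ethanol group the dam had received liquid food, 36% of whose calories came from ethanol, on gestation days 1 to 21. Dams of the pairfed group got a liquid diet in which maltose-dextrin replaced the ethanol, limited to what an ethanol dam ate, and control dams ate chow freely. When 50 to 65 days old, they were injected at the tail base with complete Freund's adjuvant (0.1 ml at 12 mg/ml), which induces arthritis, or with saline, and brains were taken 16 or 39 days later. The hippocampus of 84 rats and the prefrontal cortex of 87 rats, 84 of them shared, gave 1 array per rat and tissue. In the hippocampus there were 18 ethanol adjuvant, 11 ethanol saline, 16 pairfed adjuvant, 11 pairfed saline, 17 control adjuvant and 11 control saline rats. The prefrontal cortex had 18 adjuvant and 11 saline rats of each diet. The labels do not say which rats were littermates, so all rats count as independent in every p-value, standard error and interval below.

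A hippocampus array detected 8140 to 11235 probes (median 10136) and a prefrontal cortex array 7578 to 10949 (median 9868). All 12 neuronal markers passed the detection filter in both tissues. A pair of prefrontal cortex arrays stood apart. The array labelled pairfed saline day 16 replicate 3 was matched, over 43 probes that vary with the rat, to the hippocampus arrays: its correlation was 0.27 with its own rat and 0.62 with the rat of ethanol saline day 16 replicate 5. Of 84 rats, 82 matched their own array best, and in the other exception the own correlation was 0.482 and the best 0.485. The 43 probes were picked for correlating between the tissues of rats paired as labelled. That choice favours own matches, so the count of 82 is no check of the labels. The array of ethanol saline day 39 replicate 2 had the lowest median correlation with its tissue, 0.906 across probes, and the fewest detected probes. Results without these 2 arrays are given beside the counts they touch.

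Of the 56 enzyme genes, 41 could be tested in the hippocampus and 41 in the prefrontal cortex, 40 of them in both. A probe was tested when its deposited detection p-value was below 0.05 on at least 5 arrays of the tissue. Over the whole array 15320 of 22502 probes passed in the hippocampus and 15250 in the prefrontal cortex. Members are their genes' brightest probes, so these shares are not strictly comparable. The families are small, and their counts were not tested against the array. Of the ALDH genes 11 of 13 were tested in each tissue, of the AKR genes 12 of 17 in the hippocampus and 13 of 17 in the prefrontal cortex, of the GST genes 15 of 20 in the hippocampus and 14 of 20 in the prefrontal cortex, and of the ADH genes 2 of 4 in each. On every array of both tissues 14 genes were detected: Aldh1a1, Aldh3a2, Aldh5a1, Aldh16a1, Akr1a1, Akr1b1, Akr1c12, Gstk1, Gstm1, Gstm5, Gstm7, Gsto1, Gstp1 and Gstt2. Another 14 genes were tested in neither tissue: Adh6, Adh6a, Akr1b7, Akr1c2, Akr1c3, Akr1d1, Aldh1l2, Aldh3a1, Cyp2e1, Gsta1, Gsta2, Gsta5, Gstm6l and Gstt3. Gsta3 passed only in the hippocampus, on 7 of 84 arrays, and Akr1b8 only in the prefrontal cortex, on 5 of 87. A probe without signal can also fall below 0.05 on some arrays, so passes on so few arrays may be background. The detection counts say how often a probe passed that level. They do not say how much of one enzyme there is beside another, since probes differ in brightness.

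**Figure D1:**
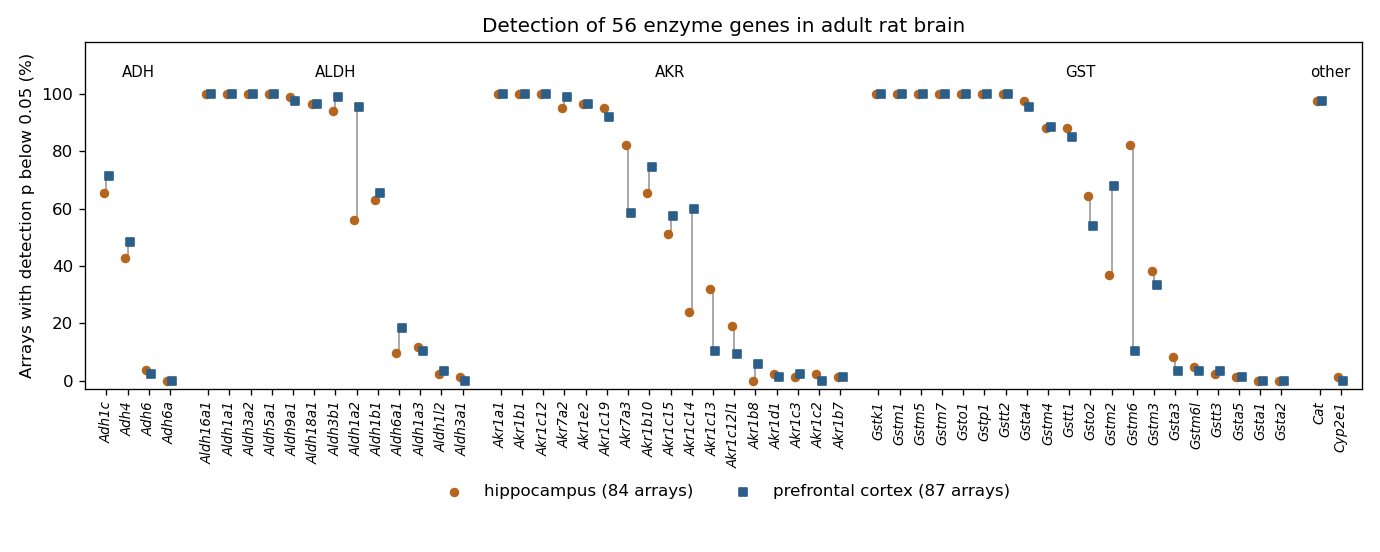
Percent of arrays with a detection p-value below 0.05 for each of the 56 enzyme genes, grouped by family (circles: hippocampus, 84 arrays; squares: prefrontal cortex, 87 arrays; grey lines join the tissues of a gene). Gstm6 was detected on 69 of 84 hippocampus and 9 of 87 prefrontal cortex arrays, the widest gap, and Cyp2e1 lies at the bottom in both tissues.

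Among the enzymes that act on ethanol itself, catalase was detected on 82 of 84 hippocampus and 85 of 87 prefrontal cortex arrays. Its log2 signal averaged 7.38 ± 0.73 in the hippocampus and 7.36 ± 0.41 in the prefrontal cortex of control saline rats (SD, n = 11 each). Cyp2e1, the ethanol-inducible microsomal oxidase, was detected on 1 of 84 hippocampus arrays and 0 of 87 prefrontal cortex arrays. Adh1c, the class I alcohol dehydrogenase that oxidises ethanol in rat liver, was detected on 55 of 84 hippocampus and 62 of 87 prefrontal cortex arrays. Its signal was dim, with means of 5.63 ± 0.33 in the hippocampus and 5.56 ± 0.51 in the prefrontal cortex of control saline rats (SD, n = 11 each). Adh4 was detected on 36 of 84 hippocampus and 42 of 87 prefrontal cortex arrays, and Adh6a on 0 of 84 and 0 of 87. Aldh1a1, a cytosolic enzyme that oxidises acetaldehyde and retinaldehyde, was detected on all arrays and averaged 9.71 ± 0.38 in the hippocampus and 9.30 ± 0.29 in the prefrontal cortex of those rats (SD, n = 11 each). Aldh1b1, a mitochondrial enzyme that also takes acetaldehyde, was detected on 53 of 84 hippocampus and 57 of 87 prefrontal cortex arrays.

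Several genes had a second probe, and these did not always tell the same story. The chosen Akr1c12 probe was detected on all 84 hippocampus and all 87 prefrontal cortex arrays, while its other probe was detected on 6 of 84 and 0 of 87, so the level of Akr1c12 is uncertain. Other probes of Aldh3a2 and Akr1c12l1 were likewise near background, on 1 of 84 hippocampus and 6 of 87 prefrontal cortex arrays for Aldh3a2 and on 0 of either for Akr1c12l1. Gstp1 had 3 probes, 2 of them detected on every array and the other on none. Many members are close paralogs in gene clusters, which a hybridisation probe may not separate. On rat build GRCr8, 8 Gstm genes lie between Gstm5 (chromosome 2, 198219769 to 198222732) and Gstm4 (chromosome 2, 198356114 to 198373487), and the Akr1c genes lie together on chromosome 17.

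The hippocampus and the prefrontal cortex differed in 14 of the 40 enzyme genes tested in both, 5 higher and 9 lower in the hippocampus. The same call, an adjusted p below 0.05 in limma with Benjamini-Hochberg adjustment over 14441 probes, was made for 35.2% of all probes (17.5% higher, 17.7% lower), so the members' share is close to that of the array. Without the 2 arrays that stood apart 15 members were called, among them these 14. The fit behind the 14 calls did not pair the tissues of a rat. With the rat as a random block 17 members were called, 5 higher and 12 lower, against 38.9% of all probes: the same 14 and, named after their values were seen, Akr1a1 (-0.13 ± 0.05), Akr1c15 (-0.16 ± 0.07) and Gstt2 (-0.14 ± 0.06). Akr1c15 was lower in the hippocampus in 60 of 84 rats. Each chip carried a single tissue, so tissue, dissection and chip set cannot be told apart. In bulk tissue, fewer cells of a type and less RNA per cell cannot be told apart either.

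Aldh1a2, the main retinoic acid-making enzyme of the embryo, known in rodent brain mostly from the meninges, had log2 signals of 4.68 to 7.51 (median 5.60) in 84 hippocampi, against 4.82 to 8.03 (median 7.01) in 87 prefrontal cortices. The ranges overlapped, and the hippocampus was the lower tissue in 73 of the 84 rats with both. The difference was -1.18 ± 0.11 (SE), or 2.26-fold lower, with an adjusted p of 6.73e-19 in limma. Detection fell alike, to 47 of 84 hippocampus arrays against 83 of 87 prefrontal cortex arrays.

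Aldh3b1, which oxidises aldehydes derived from membrane lipids, ran from 4.78 to 7.68 (median 6.64) in the hippocampus and from 4.74 to 8.96 (median 7.66) in the prefrontal cortex. It was lower in the hippocampus of 77 of 84 rats, by -1.01 ± 0.09 on the log2 scale, 2.02-fold (limma adjusted p = 3.91e-21). Gstm6, a Mu class transferase, showed the opposite: 4.81 to 6.62 (median 5.88) in the hippocampus, against 4.35 to 5.71 (median 4.98) in the prefrontal cortex. The hippocampus was the higher tissue in 78 of 84 rats. The difference of 0.82 ± 0.07, 1.77-fold (limma adjusted p = 2.29e-23), understates the change, because the prefrontal cortex signal lay near background on most arrays.

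The remaining called members differed by less than 1.5-fold in measured signal. Some of them were dim, and folds of dim probes are understated. Detection was on 20 of 84 hippocampus and 52 of 87 prefrontal cortex arrays for Akr1c14, and on 31 and 59 for Gstm2. It was on 27 and 9 for Akr1c13, and on 55 and 65 for Akr1b10. Lower in the hippocampus were Gstm2 (-0.50 ± 0.09) and Gstm5 (-0.28 ± 0.07), also of the Mu class, and Gsto1 (-0.21 ± 0.06), an Omega class enzyme that reduces dehydroascorbate. So were Akr1c14 (-0.46 ± 0.08), the rat 3-alpha-hydroxysteroid dehydrogenase that forms neurosteroids such as allopregnanolone, Akr1b10 (-0.31 ± 0.09), Aldh16a1 (-0.29 ± 0.06) and Akr7a2 (-0.23 ± 0.09), an aldehyde reductase that turns succinic semialdehyde into gamma-hydroxybutyrate. Higher in the hippocampus were Aldh1a1 (0.33 ± 0.07), Akr7a3 (0.30 ± 0.08), an aldehyde reductase known for its action on aflatoxin in rat liver, Akr1c12 (0.21 ± 0.06) and Akr1c13 (0.19 ± 0.07). Aldh1a1 was higher in the hippocampus of 61 of 84 rats, with ranges of 7.91 to 10.74 in the hippocampus and 8.65 to 10.24 in the prefrontal cortex.

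The Mu class transferases did not move as a block: of the members of the chromosome 2 cluster tested in both tissues, Gstm6 was called higher, Gstm2 and Gstm5 were called lower, and Gstm1 (0.07 ± 0.08), Gstm3 (-0.04 ± 0.07), Gstm4 (-0.06 ± 0.09) and Gstm7 (-0.003 ± 0.056) were not called. Nor did the retinaldehyde-oxidising enzymes, since Aldh1a2 was lower, Aldh1a1 higher and Aldh1a3 (0.01 ± 0.06) not called. Aldh1a3 was detected on 10 of 84 hippocampus and 9 of 87 prefrontal cortex arrays, and Gstm3 on 32 and 29. For such dim probes a missing call says little. Catalase was not called at 0.17 ± 0.11, with a 95% interval of -0.04 to 0.38, and Adh1c had a difference of -0.05 ± 0.07. The median difference over the 40 members was -0.04, against -0.01 over all probes tested.

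**Figure D2:**
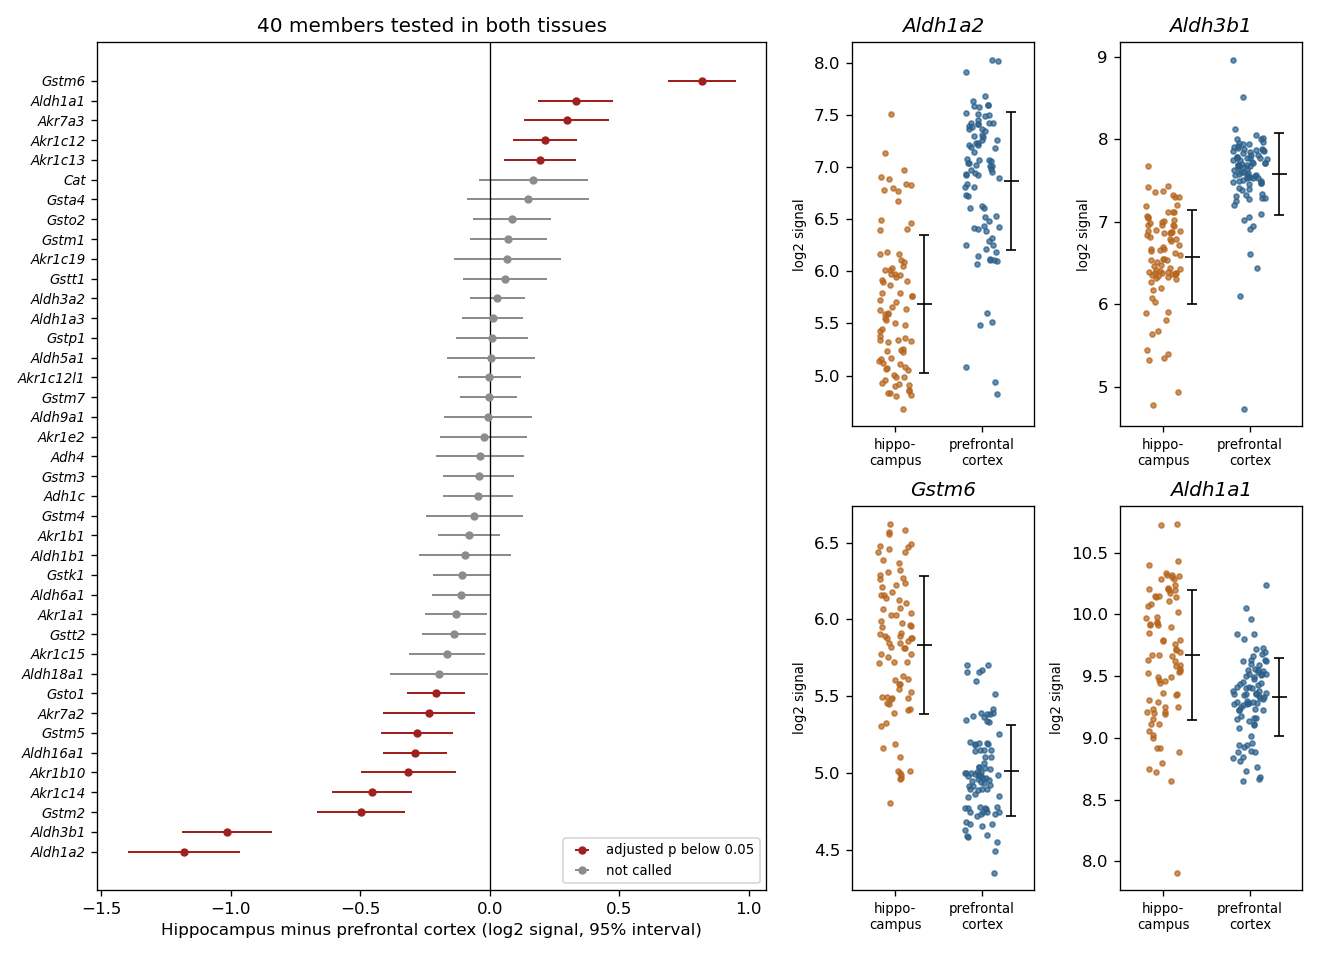
Left, hippocampus minus prefrontal cortex difference in log2 signal with its 95% interval for the 40 members tested in both tissues, red where called; right, values per rat of 4 members (hippocampus, 84 rats; prefrontal cortex, 87 rats; bars are mean ± SD). Gstm6 (0.82) stands at one end and Aldh3b1 (-1.01) and Aldh1a2 (-1.18) at the other.

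With 6 of these members the call rested on the normalization. When arrays were scaled to a common median, 8 of the 14 were called, and Akr1c12 (0.24, adjusted p = 0.0644), Akr1c13 (0.19, adjusted p = 0.0634), Akr7a2 (-0.15, adjusted p = 0.339), Aldh16a1 (-0.18, adjusted p = 0.0869), Gstm5 (-0.19, adjusted p = 0.200) and Gsto1 (-0.13, adjusted p = 0.306) missed the limma threshold with their directions kept. The 3 largest differences, of Aldh1a2, Aldh3b1 and Gstm6, were called under each of the 5 alternative settings tried.

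Because Aldh1a2, Aldh3b1 and Gstm6 set the tissues apart most, the 250 bases before their starts are shown, together with those of Gstm5 and Aldh16a1, which were also called and carry the core of the antioxidant response element. This element is bound by the transcription factor NRF2, a known inducer of many GST genes. Sequences are RefSeq's for rat build GRCr8, in 5′ to 3′ direction of the gene, with capitals marking each match to the core TGACNNNGC on either strand. Their positions are chr8:80758391-80758640 on the plus strand for Aldh1a2, chr1:210591816-210592065 on the minus strand for Aldh3b1, chr2:198272509-198272758 on the minus strand for Gstm6, chr2:198219519-198219768 on the plus strand for Gstm5 and chr1:104776271-104776520 on the minus strand for Aldh16a1.
Aldh1a2: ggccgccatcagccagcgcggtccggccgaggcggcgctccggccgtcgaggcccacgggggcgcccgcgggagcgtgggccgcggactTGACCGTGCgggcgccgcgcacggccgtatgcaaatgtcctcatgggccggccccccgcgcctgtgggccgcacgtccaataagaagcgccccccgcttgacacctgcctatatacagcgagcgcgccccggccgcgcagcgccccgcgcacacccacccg
Aldh3b1: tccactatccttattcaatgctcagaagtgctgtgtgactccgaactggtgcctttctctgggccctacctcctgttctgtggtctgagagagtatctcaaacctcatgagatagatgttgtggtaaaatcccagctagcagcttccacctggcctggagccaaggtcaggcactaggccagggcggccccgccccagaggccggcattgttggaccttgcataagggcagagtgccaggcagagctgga
Gstm6: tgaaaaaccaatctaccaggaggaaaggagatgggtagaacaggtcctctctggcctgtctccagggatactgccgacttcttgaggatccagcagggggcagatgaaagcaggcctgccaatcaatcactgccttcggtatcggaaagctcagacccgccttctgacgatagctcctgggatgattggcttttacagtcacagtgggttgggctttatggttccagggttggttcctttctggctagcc
Gstm5: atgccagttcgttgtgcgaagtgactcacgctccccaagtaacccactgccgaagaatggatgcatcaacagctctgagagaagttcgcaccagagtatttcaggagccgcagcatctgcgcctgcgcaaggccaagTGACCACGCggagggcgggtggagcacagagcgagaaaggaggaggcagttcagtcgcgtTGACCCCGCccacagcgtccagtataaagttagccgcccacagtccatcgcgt
Aldh16a1: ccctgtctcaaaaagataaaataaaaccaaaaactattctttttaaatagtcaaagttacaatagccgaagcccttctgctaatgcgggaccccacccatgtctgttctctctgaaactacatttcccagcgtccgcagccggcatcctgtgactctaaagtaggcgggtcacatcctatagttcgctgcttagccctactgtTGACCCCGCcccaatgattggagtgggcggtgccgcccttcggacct
The Aldh1a2 window is the richest in G and C of these, at 77.2%, against 53.2% for Gstm6.

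RefSeq held a promoter for 48 of the 56 members, 50 windows in all of 250 bases before and 50 after the start. The core occurred in the windows of 10 members, 20% of their windows, against 12.1% of the 33469 windows of all genes. The 10 were Aldh1a2, Aldh9a1, Aldh16a1, Akr1c15, Gsta1, Gsta2, Gsta3, Gstm5, Gstm7 and Gstp1. Of these, 7 were tested in both tissues and 3 were called between them, too few to set against the 35.2% of all probes. The windows of Akr1c12 and Akr1c13, which lie on either side of Akr1c19 on chromosome 17, share a run of 66 identical bases. Both were called higher in the hippocampus, though not with median scaling, and Akr1c19 was not called (0.07 ± 0.10). A match to these letters is a description of the window and not a binding site.

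Markers of other cell types also differed between the dissections. Of 11 meningeal markers 10 were called, 8 lower in the hippocampus and 2 higher, with a median of -0.43. Slc22a6, a meningeal transporter, was lower by -1.39 ± 0.10 and the collagen gene Col1a2 by -1.69 ± 0.13, whereas Dcn (decorin) was higher by 0.97 ± 0.08. Of 6 choroid plexus markers 5 were higher in the hippocampus, Ttr (transthyretin) by 6.26 ± 0.23, and of 10 oligodendrocyte markers 9 were higher, with a median of 0.55. Of 8 striatal markers 5 were lower, with a median of -0.41, and of 12 neuronal markers 2 were higher and 6 lower. Astrocyte markers split 3 higher and 3 lower of 11, while 3 of 9 microglial, 6 of 9 endothelial and mural and 4 of 6 blood markers were lower. Their part in the differences of the enzyme genes was not tested. A relation among rats within each tissue was examined after the difference in Aldh1a2 had been seen. Being within a tissue, it does not test that part, and how many other probes follow these markers was not counted. Over rats, with group and chip removed, Aldh1a2 followed the mean of the 11 meningeal markers in the hippocampus (Pearson r = 0.55, Spearman rho = 0.52, n = 84). The permutation p was 1e-05 for both, the smallest that 100000 permutations can give, and 2e-05 after adjustment over both tissues. Without the 2 rats farthest from the median of the markers r was 0.51. In the prefrontal cortex the relation did not pass (r = 0.17, permutation p = 0.108, adjusted 0.108; rho = 0.21, permutation p = 0.0545, adjusted 0.0545; n = 87), and r was 0.20 without the 2 farthest rats.

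Other genes of the pathways around these enzymes also differed between the tissues, where 35.2% of all probes were called, and the lists' shares were not tested against each other. Of 14 tested genes of retinoid transport, synthesis and breakdown, 3 were called higher in the hippocampus and 4 lower. Ttr, the carrier of thyroxine and retinol-binding protein that also marks choroid plexus, was higher by 6.26 ± 0.23. Lower beside Aldh1a2 were Cyp26a1 (-1.33 ± 0.08) and Cyp26b1 (-0.72 ± 0.08), which degrade retinoic acid, and Crabp2 (-1.01 ± 0.10), which carries it to its receptor. Of 17 genes of glutathione synthesis and recycling, 3 were higher and 4 lower, led by the microsomal transferase Mgst1 (0.58 ± 0.09) and the glyoxalase Hagh (-0.37 ± 0.07). Of 25 peroxide, thioredoxin and NRF2 genes, 6 were higher and 6 lower, among them extracellular superoxide dismutase Sod3 (0.49 ± 0.09) and haem oxygenase Hmox2 (-0.41 ± 0.07). Of 14 other carbonyl, acetate and alcohol enzymes, 6 were higher and 3 lower, such as Esd (0.31 ± 0.05) and monoamine oxidase Maoa (-0.34 ± 0.07).

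Prenatal diet left no called difference in any of these enzyme genes. Between ethanol and control rats, with both injections and both days averaged, 0 of 41 members were called in the hippocampus and 0 of 41 in the prefrontal cortex, against 0% of all probes in each (limma, adjusted over 15320 and 15250 probes). An unadjusted p below 0.05 was found for 1 member in the hippocampus, where 3.56% of all probes passed, and for 2 in cortex, where 4.79% did. The median difference over the members was 0.00 in the hippocampus and 0.02 in the prefrontal cortex. Without the 2 prefrontal cortex arrays that stood apart, 0 members were called in this and in every other comparison within that tissue. A missed threshold does not show that diets act alike, so the intervals matter. For each of the 41 members in each tissue, the 95% interval of the ethanol minus control difference stayed within 1.5-fold in either direction. Diet was given to dams and litters are not known, so the intervals may be too narrow. Such bounds are on the scale of log2 signal plus an offset and mean little for dim probes. Among the members detected on more than 90% of a tissue's arrays they held for 22 of 22 in the hippocampus and 23 of 23 in the prefrontal cortex, where the widest reached 1.38-fold for Aldh1a1 and 1.45-fold for Akr1c19.

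For enzymes of ethanol oxidation, the values of each group follow. Catalase in the prefrontal cortex had a log2 signal of 6.53 to 8.09 (median 7.44) in 18 ethanol adjuvant rats, 6.53 to 7.62 (median 7.20) in 18 pairfed adjuvant rats and 6.48 to 7.94 (median 7.16) in 18 control adjuvant rats. After saline it ran from 5.50 to 7.50 (median 7.19) in 11 ethanol rats and from 5.00 to 7.69 (mean 6.97) in 11 pairfed rats. In 11 control saline rats it ran from 6.68 to 7.82 (median 7.51, mean 7.36). The pairfed mean is not to be set against the medians. All 6 groups overlapped, which does not show that diets act alike. For this probe, repeat arrays of a single rat varied more (SD 0.784) than rats of a group did (SD 0.476). Over all rats the ethanol minus control difference of Cat was -0.06 ± 0.20 in the hippocampus (95% interval -0.45 to 0.33) and -0.04 ± 0.12 in the prefrontal cortex (-0.29 to 0.20).

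Aldh1a1 in the hippocampus spanned 7.91 to 10.72 (median 9.62) in ethanol adjuvant, 9.11 to 10.74 (mean 9.94) in pairfed adjuvant and 8.92 to 10.43 (median 9.62) in control adjuvant rats. The pairfed value is a mean and not to be set against the medians. In saline rats the ranges were 8.72 to 10.32 (median 9.53) for ethanol, 8.80 to 10.34 (median 9.58) for pairfed and 9.15 to 10.28 (median 9.67) for control. Its ethanol minus control difference was -0.20 ± 0.14 in the hippocampus and -0.10 ± 0.09 in the prefrontal cortex. That of Adh1c was 0.05 ± 0.11 in the hippocampus and 0.06 ± 0.10 in the prefrontal cortex. None of these was called.

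The 5 members with the smallest p-values in each comparison are given as values only, since none was called. For ethanol minus control in the hippocampus these were Aldh3a2 (-0.20 ± 0.09), a fatty aldehyde dehydrogenase, Aldh1a1, Akr1c12l1 (-0.15 ± 0.10), Aldh9a1 (0.17 ± 0.12) and Aldh1a3 (0.14 ± 0.10). Those of the prefrontal cortex were Gstm3 (0.24 ± 0.11), Aldh6a1 (-0.20 ± 0.10), an enzyme of valine breakdown, Gstm4 (-0.27 ± 0.15), Gstp1 (-0.15 ± 0.09), the Pi class transferase, and Gstt1 (0.21 ± 0.14). The smallest adjusted p was 0.999 in the hippocampus and 0.991 in the prefrontal cortex (limma). By chip, ethanol lay below control for Aldh3a2 on 6 of 8 hippocampus chips and above it for Gstm3 on 5 of 8 prefrontal cortex chips. For cortical Aldh6a1 it lay below on 7 of 8 chips. For cortical Gstp1 it lay above on 5 of 8, opposite to the fitted difference. Several of these members were dim. Cortical Gstm3 was detected on 29 of 87 arrays and Aldh6a1 on 16. Hippocampal Akr1c12l1 was detected on 16 of 84 arrays and Aldh1a3 on 10.

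Ethanol against pairfed rats, the comparison in which both dams had a liquid diet of matched amount, likewise called 0 of 41 members in each tissue, against 0% of all probes. In the hippocampus 5 members had an unadjusted p below 0.05 (4.01% of all probes did), all of them higher after ethanol, and in the prefrontal cortex 1 did (3.78% of all probes). Gsta4, which conjugates the lipid peroxidation product 4-hydroxynonenal, had hippocampal signals of 5.94 to 8.53 (median 7.43) in 29 ethanol rats, against 4.95 to 8.39 (median 7.17) in 27 pairfed and 5.50 to 8.01 (median 7.29) in 28 control rats. Its ethanol minus pairfed difference was 0.39 ± 0.13 (unadjusted p = 0.00363, limma adjusted p = 1.00), above 0 on 7 of 8 chips, while ethanol minus control came to 0.16 ± 0.13. Aldh9a1, which makes a carnitine precursor, had 6.79 to 7.81 (median 7.16) in ethanol, 4.89 to 8.13 (median 6.78) in pairfed and 5.79 to 8.13 (median 6.997) in control hippocampi, a difference of 0.36 ± 0.13 from pairfed. The ethanol range of Aldh9a1 lay inside both others. Gstm5 (0.26 ± 0.11), Gstm7 (0.20 ± 0.10) and Akr1c19 (0.32 ± 0.16) completed the 5 in the hippocampus. The prefrontal cortex had Gstk1 (0.23 ± 0.09), the Kappa class enzyme of mitochondria and peroxisomes, Akr1c19 (0.32 ± 0.16), Gstm3 (0.20 ± 0.11), Adh4 (0.24 ± 0.14) and Adh1c (-0.16 ± 0.10).

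Pairfed rats differed from control rats in 0 of 41 members in each tissue as well, against 0% of all probes, and unadjusted p-values below 0.05 for 1 member in the hippocampus (4.3% of all probes) and 2 in the prefrontal cortex (5.45%). The smallest p-values belonged in the hippocampus to Aldh3a2 (-0.20 ± 0.09), Aldh18a1 (-0.28 ± 0.15), which starts proline synthesis, Gsta4 (-0.23 ± 0.13), Cat (-0.30 ± 0.20) and Aldh9a1 (-0.18 ± 0.13). Cortical ones belonged to Aldh6a1 (-0.22 ± 0.10), Adh1c (0.22 ± 0.10), Gstk1 (-0.17 ± 0.09), Akr1c15 (-0.18 ± 0.12) and Cat (-0.19 ± 0.12). These comparisons share their control or pairfed rats with those above.

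**Figure D3:**
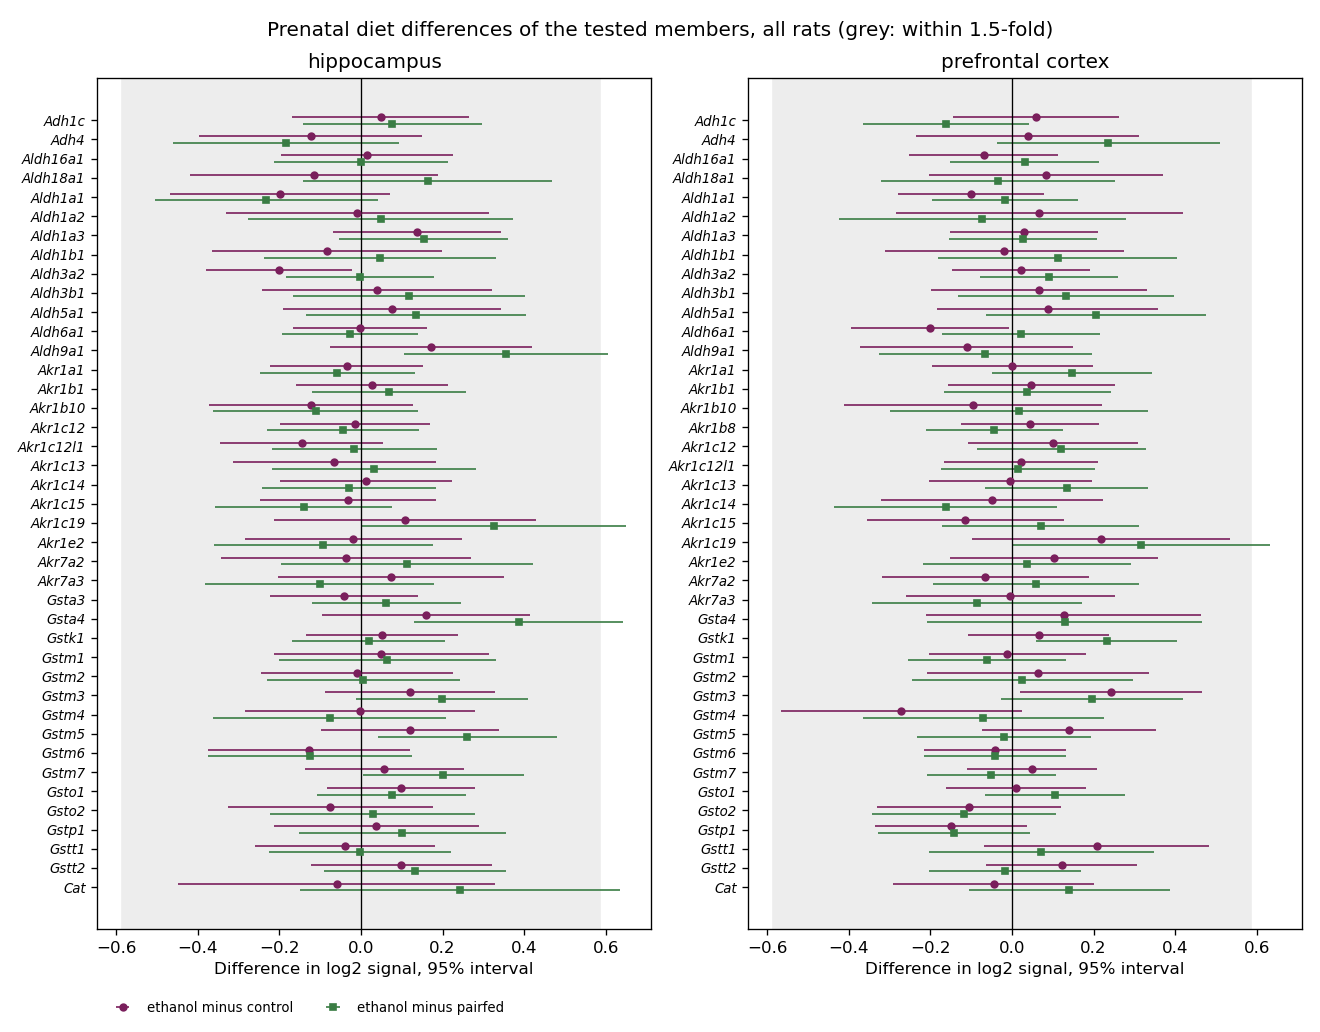
Ethanol minus control (circles) and ethanol minus pairfed (squares) differences in log2 signal with 95% intervals for the 41 members tested in each tissue, averaged over injections and days; the grey band marks 1.5-fold. Every ethanol minus control interval lies inside the band. Of the ethanol minus pairfed intervals, 37 of 41 in the hippocampus and 40 of 41 in the prefrontal cortex do. Hippocampal Gsta4 (0.39) is the ethanol minus pairfed difference farthest from 0.

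Splitting the rats by injection did not bring out a diet effect. In saline rats 0 of 41 members were called for ethanol minus control in each tissue, and 0% of all probes. The 5 smallest p-values in the hippocampus were those of Aldh3a2 (-0.19 ± 0.14), Gstm3 (0.19 ± 0.16), Aldh1a1 (-0.24 ± 0.21), Gstm6 (-0.21 ± 0.20) and Akr1c12l1 (-0.16 ± 0.16), with 0 members at an unadjusted p below 0.05 (3.06% of all probes). In the prefrontal cortex 3 members passed that level (5.17% of all probes), Gstm4 (-0.59 ± 0.24), Gstp1 (-0.35 ± 0.15) and Gstm3 (0.40 ± 0.18), followed by Gstm7 (0.22 ± 0.13) and Gstm1 (-0.27 ± 0.15). Gstm4 there had 4.51 to 6.81 (median 5.87) in 11 ethanol saline rats, against 5.26 to 7.13 (median 6.54) in 11 control saline rats. Gstp1 had 9.91 to 10.89 (median 10.32) in ethanol saline and 10.46 to 11.19 (median 10.67) in control saline rats. Both pairs of ranges overlapped. The other detected probe of Gstp1 gave -0.004 ± 0.19 for this comparison.

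For ethanol minus pairfed in saline rats 0 of 41 members were called in each tissue, against 0% of all probes, and 3 in the hippocampus (2.57% of all probes) and 0 in the prefrontal cortex (4.2%) had an unadjusted p below 0.05. Leading by p were hippocampal Aldh9a1 (0.46 ± 0.20), Gsta4 (0.45 ± 0.20), Gstm7 (0.33 ± 0.15), Gstm5 (0.26 ± 0.17) and Gsto1 (0.21 ± 0.14), and cortical Gstk1 (0.24 ± 0.14), Akr1c15 (0.34 ± 0.19), Aldh1b1 (0.38 ± 0.23), Aldh3b1 (0.34 ± 0.21) and Akr1a1 (0.24 ± 0.16). Pairfed minus control in saline rats also called 0 of 41 in each tissue, against 0%, with 1 hippocampal (3.07% of all probes) and 4 cortical members (5.14%) at that unadjusted level. It was led by hippocampal Aldh3a2 (-0.33 ± 0.14), Gsta4 (-0.36 ± 0.20), Akr1c13 (-0.29 ± 0.20), Aldh18a1 (-0.35 ± 0.24) and Akr7a3 (0.29 ± 0.22), and by cortical Aldh6a1 (-0.38 ± 0.15), Aldh1b1 (-0.58 ± 0.23), Gstm7 (0.29 ± 0.13), Gstk1 (-0.29 ± 0.14) and Cat (-0.38 ± 0.20). With 11 saline rats a diet the intervals were wider. For ethanol minus control, 18 of 22 well detected members in the hippocampus and 15 of 23 in the prefrontal cortex stayed within 1.5-fold. For ethanol minus pairfed, 12 of 22 and 19 of 23 did.

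In adjuvant rats ethanol minus control again called 0 of 41 members in each tissue, against 0% of all probes, with 0 hippocampal (6.02% of all probes) and 1 cortical member (5.03%) at an unadjusted p below 0.05. The leading values were hippocampal Aldh3a2 (-0.21 ± 0.11), Gstt2 (0.25 ± 0.14), Gsta4 (0.23 ± 0.16), Adh1c (0.17 ± 0.14) and Aldh1a2 (-0.23 ± 0.20), and cortical Gstm1 (0.25 ± 0.12), Gstm5 (0.25 ± 0.13), Akr1c19 (0.37 ± 0.20), Gstt2 (0.21 ± 0.11) and Gstk1 (0.18 ± 0.11). Ethanol minus pairfed in adjuvant rats, also with 0 of 41 and 0% called, was led by hippocampal Aldh1a1 (-0.40 ± 0.17), Gsta4 (0.33 ± 0.16), Gstm5 (0.26 ± 0.14), Akr7a2 (0.36 ± 0.19) and Aldh1a3 (0.22 ± 0.13). At the unadjusted level it held 2 hippocampal (6.84% of all probes) and 1 cortical member (3.15%). Its cortical leaders were Gstk1 (0.22 ± 0.11), Akr1c19 (0.38 ± 0.20), Gstm3 (0.24 ± 0.14), Akr1c13 (0.21 ± 0.12) and Akr7a2 (0.24 ± 0.16). For pairfed minus control, also with 0 of 41 and 0% called, 1 hippocampal (5.63% of all probes) and 2 cortical members (4.5%) had an unadjusted p below 0.05. Its leaders were hippocampal Gstm4 (0.38 ± 0.18), Akr1c14 (0.24 ± 0.14), Akr7a2 (-0.30 ± 0.20), Aldh1a1 (0.24 ± 0.17) and Gsto1 (0.15 ± 0.12), and cortical Adh1c (0.28 ± 0.13), Aldh1a1 (-0.24 ± 0.11), Aldh1b1 (0.31 ± 0.18), Gstt1 (0.27 ± 0.17) and Gstp1 (0.18 ± 0.12).

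Whether adjuvant changed the diet difference was tested as such, by subtracting the ethanol minus control difference of saline rats from that of adjuvant rats. In each tissue 0 of 41 members and 0% of all probes were called, and an unadjusted p below 0.05 was reached by 0 members in the hippocampus (4.33% of all probes) and 4 in the prefrontal cortex (5.18%). Gstm1 in the prefrontal cortex had 10.28 to 11.71 (median 10.72) in ethanol adjuvant and 10.03 to 11.06 (median 10.61) in ethanol saline rats, against 9.77 to 11.28 (median 10.70) in control adjuvant and 10.38 to 11.53 (median 10.82) in control saline rats. Its ethanol minus control difference was 0.25 ± 0.12 with adjuvant and -0.27 ± 0.15 with saline. These differ by 0.52 ± 0.20 (unadjusted p = 0.00992, limma adjusted p = 0.939), with all 4 ranges overlapping. Next came Gstm7 (-0.35 ± 0.16), Gstm4 (0.63 ± 0.30), Gstp1 (0.39 ± 0.19) and Cat (0.47 ± 0.25). For Gstp1 the sign depended on the probe, since its other detected probe gave -0.30 ± 0.24.

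In the hippocampus the same difference was led by Aldh1a2 (-0.44 ± 0.32), Gstt2 (0.30 ± 0.22), Gstm4 (0.33 ± 0.28), Adh1c (0.24 ± 0.22) and Aldh6a1 (-0.18 ± 0.17). With pairfed in place of control, 0 of 41 members were again called in each tissue, against 0% of all probes, and 0 hippocampal (4.16% of all probes) and 1 cortical member (3.78%) had an unadjusted p below 0.05. The leaders were hippocampal Akr1c14 (-0.38 ± 0.21), Akr7a2 (0.50 ± 0.31), Aldh3a2 (-0.27 ± 0.18), Akr1c12 (0.28 ± 0.19) and Gsto1 (-0.27 ± 0.18), and cortical Akr1c15 (-0.54 ± 0.25), Aldh1b1 (-0.54 ± 0.30), Gstm4 (0.52 ± 0.30), Aldh3b1 (-0.42 ± 0.27) and Akr7a2 (0.36 ± 0.26). This is the least precise of the diet comparisons: the median standard error over members was 0.249 in the hippocampus and 0.227 in the prefrontal cortex against control, and 10 of 22 and 8 of 23 well detected members had an interval within 1.5-fold.

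**Figure D4:**
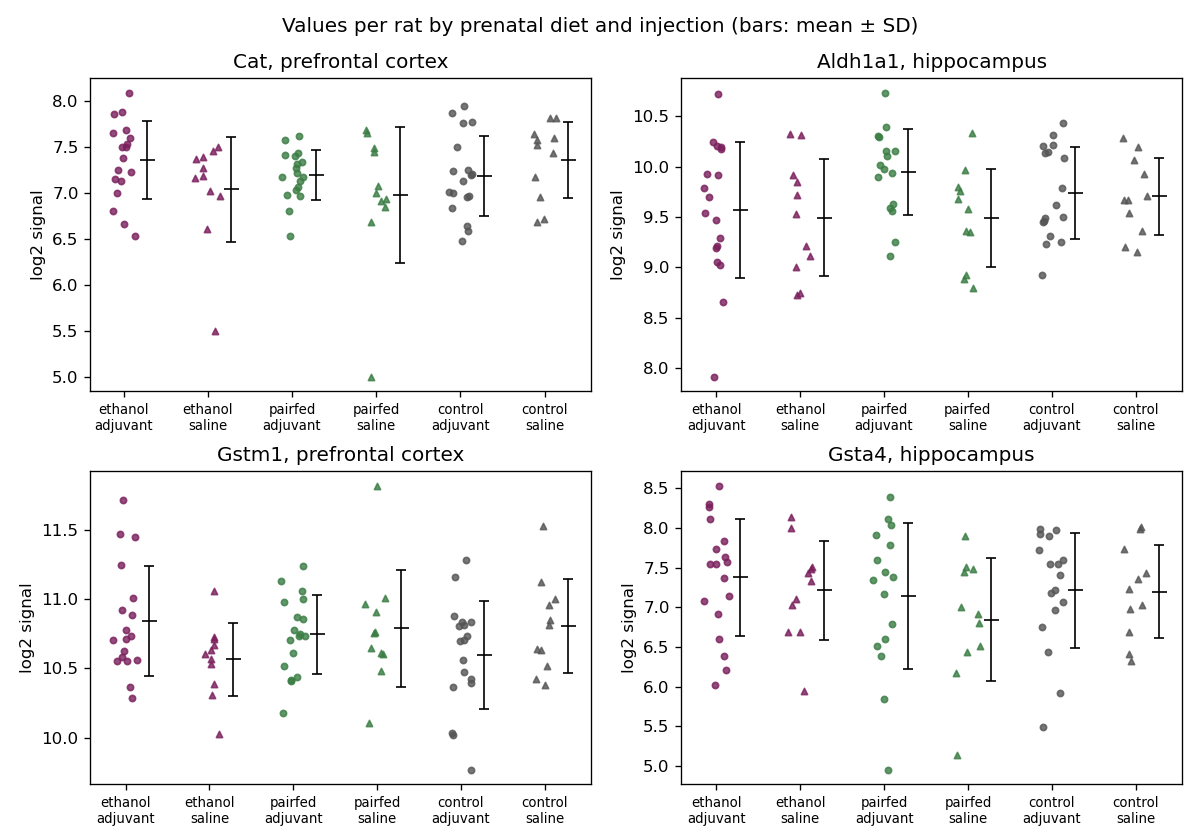
Log2 signal per rat of Cat and Gstm1 in the prefrontal cortex and of Aldh1a1 and Gsta4 in the hippocampus, by prenatal diet (colour) and injection (circles adjuvant, triangles saline), with mean ± SD beside each group. The groups overlap in every panel, and the lowest Cat value, 5.00, is that of a pairfed saline rat.

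Adjuvant itself was compared with saline over all diets at each day. At day 16, 0 of 41 members were called in the hippocampus, where 0.0587% of all probes were, and 0 of 41 in the prefrontal cortex, where 0.131% were. An unadjusted p below 0.05 was reached by 4 members in the hippocampus (6.47% of all probes) and 2 in the prefrontal cortex (4.96%). Hippocampal Gsta4 had 5.84 to 8.53 (median 7.37) in 27 adjuvant rats and 6.17 to 7.996 (median 7.03) in 15 saline rats, a difference of 0.46 ± 0.15 (limma adjusted p = 0.526). Gstm7 (0.27 ± 0.12), Aldh9a1 (0.33 ± 0.15), Aldh5a1 (0.32 ± 0.16), which removes the GABA product succinic semialdehyde, and Gsto2 (-0.26 ± 0.15) followed. The sign for Gstm7 turned with median scaling (-0.0019). Cortical Akr1c15 had 4.69 to 6.91 (median 5.69) in 27 adjuvant rats and 4.80 to 5.86 (median 5.33) in 15 saline rats, a difference of 0.39 ± 0.14 (limma adjusted p = 0.714). It was followed by Gstt2 (0.28 ± 0.11), Gstm6 (-0.18 ± 0.10), Gsto2 (-0.20 ± 0.13) and Gsto1 (0.15 ± 0.10).

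At day 39, 0 of 41 members were called in each tissue, against 0% of all probes, with 3 members in each at an unadjusted p below 0.05 (5.03% of all probes in the hippocampus, 5.34% in the prefrontal cortex). In the hippocampus Akr1c15 (-0.31 ± 0.13), Gsto1 (0.23 ± 0.11), Gstm2 (0.28 ± 0.14), Aldh1a1 (0.24 ± 0.16) and Akr1b1 (0.16 ± 0.11), the aldose reductase of the polyol pathway, led. With median scaling Akr1b1 turned to -0.081. Akr1c19 had the smallest p of any member in a comparison within a tissue. In the prefrontal cortex it had 5.33 to 7.75 (median 6.39) in 27 adjuvant rats and 5.48 to 8.54 (median 6.97) in 18 saline rats, a difference of -0.56 ± 0.18 (unadjusted p = 0.00224, limma adjusted p = 0.620). Gstk1 (-0.21 ± 0.10), Akr1c15 (0.27 ± 0.14), Gstt1 (0.31 ± 0.15) and Aldh5a1 (-0.29 ± 0.15) came after it.

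The neighbouring pathways were compared in the same way. In the 26 comparisons within tissues, 0 genes were called among the 17 tested genes of glutathione synthesis and recycling, the 25 peroxide, thioredoxin and NRF2 genes, the 14 other carbonyl, acetate and alcohol enzymes and the 14 to 15 retinoid genes. At an unadjusted p below 0.05 the most in any comparison were 3 glutathione, 3 peroxide, 2 carbonyl and 3 retinoid genes. Of all probes, 2.57% to 6.84% reached that level, depending on the comparison. The counts are maxima over 26 comparisons, so they cannot be set against any single share. Among markers of other cells, 0 were called in the diet comparisons. At day 16, 3 of 7 blood and 2 of 9 endothelial and mural markers were called higher with adjuvant in the hippocampus, against 0.0587% of all probes called. In the prefrontal cortex 3 of 6 blood, 2 of 9 endothelial and mural and 1 of 11 meningeal markers were, against 0.131%. These lists were chosen with earlier results of these data known, so the counts are no independent support.

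Much of the spread among rats was matched by repeat hybridisations of the same rat's RNA. In the hippocampus 4 rats were hybridised repeatedly, on 16 arrays in all, and the median SD over the 41 members was 0.389 between repeats, against 0.453 between rats of a group. For 3 of these arrays, all of a pairfed saline day 16 rat, the labels disagree on the injection, and without them, an exclusion chosen after seeing the data, the median between repeats was 0.410 over the other 3 rats with 12 arrays. In the prefrontal cortex a single rat with 9 arrays gave a median of 0.336 between repeats, against 0.416 between rats. The repeats varied at least as much as the rats for 14 of 41 members in the hippocampus and 12 of 41 in the prefrontal cortex (33.3% and 30.9% of all probes). For cortical Cat the SD was 0.784 between repeats and 0.476 between rats, and for hippocampal Aldh9a1 it was 0.844 and 0.519. Cortical Aldh1a2 (0.279 between repeats, 0.679 between rats) and Gstm4 (0.243 and 0.585) varied mostly between rats. Repeats lay mostly on different chips, so these SDs include differences between chips.

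Levels in the hippocampus and prefrontal cortex of the same rat were compared over 84 rats, with group and chip removed. An unadjusted Pearson p below 0.05 was reached by 8 of 40 members, against 12% of all probes, and r was above 0 for 26 of 40 members, against 58.5% of all probes. The correlation passed for 0 of 40 members by Pearson (1.97% of 14441 probes did) and for 1 of 40 by Spearman (1.95%), each with a permutation test adjusted over all probes. Gstp1 was that member, with rho = 0.38 (permutation p = 0.00025, adjusted 0.0187) and r = 0.31 (permutation p = 0.00388, adjusted 0.122). Its residual, with group and chip removed, had the same sign in both tissues in 57 of 84 rats. Without the 2 rats farthest from the prefrontal cortex median, r for Gstp1 was 0.39 and its adjusted permutation p 0.0229. The highest r was that of Aldh5a1 (r = 0.32, permutation p = 0.00302, adjusted 0.106; rho = 0.34, adjusted 0.0659). After Gstp1 came Gstm7 (r = 0.31, permutation p = 0.00382, adjusted 0.121; rho = 0.30), Akr1b10 (r = 0.25, permutation p = 0.0236, adjusted 0.304; rho = 0.21) and Cat (r = 0.22, permutation p = 0.0445, adjusted 0.396; rho = 0.26). Without the 2 farthest rats these were 0.32 for Aldh5a1, 0.33 for Gstm7, 0.30 for Akr1b10 and 0.29 for Cat. Some members ran the other way: Adh1c had r = -0.25 (permutation p = 0.0220, adjusted 0.298; rho = -0.25; r = -0.20 without the 2 farthest rats), and Akr1c14, named after its value was seen, had r = -0.22 (permutation p = 0.0370, adjusted 0.368; rho = -0.19; r = -0.21 without them). Aldh1a1 had r = 0.21 (permutation p = 0.0605, adjusted 0.447; rho = 0.23; r = 0.20 without them). The median r was 0.04 over the 40 members and 0.03 over all probes.

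**Figure D5:**
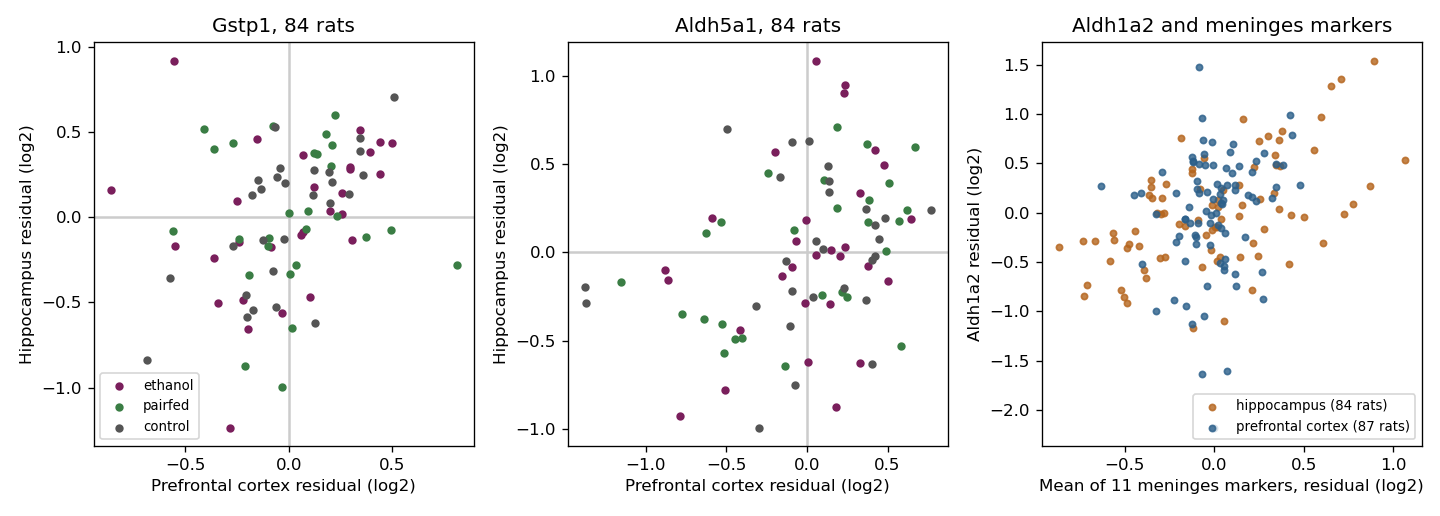
Left and middle, residual log2 signal of Gstp1 and Aldh5a1 in the hippocampus against the prefrontal cortex of the same 84 rats, coloured by prenatal diet; right, residual of Aldh1a2 against that of the mean of 11 meningeal markers in each tissue. Spearman rho was 0.38 for Gstp1 and 0.34 for Aldh5a1, and Pearson r between Aldh1a2 and the markers was 0.55 in the hippocampus and 0.17 in the prefrontal cortex, a gap that was not tested.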

How the data were processed

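RNA from hippocampus and prefrontal cortex was hybridised to Illumina rat BeadChip arrays, 192 in all, with 8 chips of 12 arrays per tissue. Per the file headers, the authors' deposited raw table holds a signal and a detection p-value for each of 22502 probes, and the signal was read as log2 from its values. A second table of the authors' deposited values, normalized by an unstated method and read as log2 too, served as an alternative. The scanner software, any background step and how detection p-values arose are not stated in the labels or headers. Of the probes, 13787 had a gene symbol in the platform annotation. Gene positions and promoters are RefSeq's (GRCr8).

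Signals were put back on the linear scale, background-corrected with normexp (using detection p-values), raised by an offset of 16 and quantile-normalized over all arrays (neqc, limma 3.58.1, R 4.3.3), so folds of dim probes are understated. Within each tissue limma fitted 12 groups of diet, injection and day, with chip as a block, on 1 array per rat, and comparisons averaged the groups with equal weight. The 20 repeat hybridizations and 1 repeat amplification served only for the spread between repeats and an alternative. The tissues were compared in a joint fit of 171 arrays with chip as a random block (correlation 0.0202). Calls needed an adjusted p under 0.05, Benjamini-Hochberg over all probes tested. The correlation between tissues, planned with adjustment over the members, was adjusted over all 14441 probes instead. The scripts were checked on simulated data.

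The members, the gene lists and the tests were chosen with earlier results of these data known. Values are given for called members, otherwise for the 5 with the smallest p in a comparison, for the 5 with the highest correlation between tissues and for the known ethanol enzymes, with up to 4 genes per pathway or marker list. The number of arrays limits the precision.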

Additional observations from a re-analysis of the deposited data

How the results depend on the processing

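For the 26 comparisons within tissues, the count of called members was 0 under every alternative, at most 28 settings for a comparison and 715 counts in all: other background steps, offsets and normalizations, the authors' values, no detection filter, chip treated otherwise, repeats averaged, hemoglobin or detected probes as covariates, the doubted arrays left out, and each saline day 16 replicate left out in turn (0 to 0 called). A rat can carry another replicate number in each tissue, so the numbers pair no samples. With the replicate number as a block 0 members were called in every comparison, and the median standard error of ethanol minus control was 0.114 in the hippocampus and 0.112 in the prefrontal cortex, against 0.124 and 0.112 without it. Of single values, 3 changed sign, none of them called: the ethanol minus control difference between injections of Gstp1 in the prefrontal cortex with another probe (-0.30), and with median scaling hippocampal adjuvant minus saline of Gstm7 at day 16 (-0.0019) and of Akr1b1 at day 39 (-0.081). Between the tissues 8 members were called with median scaling, 3 higher and 5 lower in the hippocampus, 17 with the rat as a random block and 14 without background correction or with an offset of 50. Leaving out the 2 doubted arrays, an alternative chosen after seeing the data, gave 15. The correlation between tissues passed by Pearson for 1 member, Gstp1, without the 2 farthest rats, and for 0 without the doubted rats or without background correction. The cause of these shifts was not tested. Dim probes limit the fold that can be measured, and 14 of 56 members could not be tested at all.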
